A study of Homo sapiens with 4 samples.

Results

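Wnt signalling genes were followed in HCC1954 cells, an established human breast cancer cell line, after depletion of the palmitoyltransferase ZDHHC15. The 10 genes described here (WNT5A, WNT7A, WNT7B, WNT10A, DKK1, DKK3, AXIN2, LGR5, TCF7 and RNF43) were taken by symbol from a table of 58735 genes, and all 10 were found. They comprise ligands, secreted inhibitors, and genes that act as targets or feedback regulators of the pathway. Total RNA was sequenced from 2 samples with a scrambled control hairpin (shCON 1 and 2) and 2 samples with a GIPZ hairpin against ZDHHC15 (shZDHHC15 1 and 2), all grown in RPMI-1640 medium with fetal bovine serum. The labels describe both a stable knockdown and a transient transfection harvested at 36 h, and do not say whether the numbers 1 and 2 mark separate cultures, clones or hairpins, so that p-values measure only the spread between these samples, which may be technical. ZDHHC15 itself received 17617 and 15716 counts with the control hairpin and 0 counts in both shZDHHC15 samples, where a count of 0 allows up to 3 counts.

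Wnt proteins are secreted, lipid-modified ligands that bind Frizzled receptors and the LRP5 and LRP6 coreceptors. In canonical signalling this binding stops a destruction complex built on the axins from degrading β-catenin, which then joins the TCF and LEF factors on DNA and raises target genes. Among these targets are restraints on the pathway itself, such as AXIN2, RNF43 and DKK1, so the transcripts of these genes are widely used as readouts. In mammary epithelium the pathway is known for its part in stem cell maintenance and ductal growth.

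Total counts lay between 17560982 and 19118704 per sample. The 6 breast epithelial markers (EPCAM, CDH1, KRT8, KRT18, KRT19 and ERBB2) were detected in each sample, with a summed level of 13604 and 14611 CPM (a gene's counts per 1e6 counts of the TMM-scaled library) in shCON cells and 7992 and 7966 CPM in shZDHHC15 cells. The lower sum lay in the keratin genes KRT8, with 105283 and 106976 counts against 34507 and 40916, and KRT18, whereas ERBB2 had 101910 and 100029 counts against 93750 and 92598 and KRT19 had 343 and 339 against 503 and 506. Of 7 fibroblast markers, 1 or 2 per sample exceeded 3 counts, and their sum lay between 5.81 and 7.23 CPM in shCON cells and between 8.61 and 11.5 CPM in shZDHHC15 cells, with LUM at 0 throughout. Of 6 leukocyte markers, 2 or 3 exceeded 3 counts, with sums of 0.889 to 0.987 CPM in shCON cells and 1.83 to 2.04 CPM in shZDHHC15 cells, and CD3E was at 0. Of 4 endothelial markers, 3 or 4 exceeded 3 counts, and their sum was 57.1 CPM in each shCON sample and 107 and 101 CPM in the shZDHHC15 samples. These genes did not move together, with 75 and 56 counts against 666 and 405 for PECAM1, 807 and 780 against 1224 and 1487 for CDH5, 159 and 121 against 108 and 87 for KDR, and 0 to 7 counts for VWF. The part of these shifts in the results below was not tested. In RNA from whole cultures, fewer cells with a transcript and less of it per cell cannot be told apart.

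The members did not move together. DKK1, the most abundant of them per length, fell, as did RNF43, while AXIN2, WNT5A and TCF7 rose from low levels. WNT7B and WNT10A did not pass the test. WNT7A, DKK3 and LGR5 were at or near 0 counts and were not tested. Of the 7 tested members, which had at least 10 counts in every sample, 3 were thus called higher and 2 were called lower (adjusted p under 0.05). Among all 15817 genes tested, 42% were called at this threshold, 21.7% as higher and 20.3% as lower, so a call by itself was common in this comparison. The shCON and shZDHHC15 samples did not overlap for any of the 7, with 5 of them higher and 2 lower. This was also the case for 72.5% of the tested genes, made up of 37.2% that were higher and 35.3% that were lower.

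**Figure D1:**
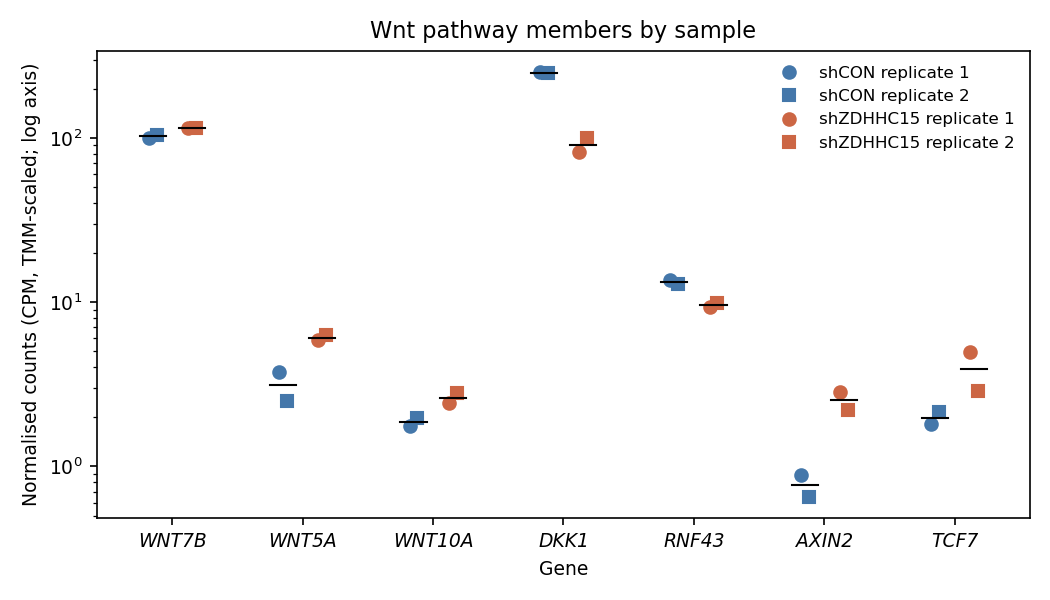
Normalised counts (CPM on TMM-scaled libraries, log axis) of the 7 tested members, with circles for replicate 1, squares for replicate 2, blue for shCON, orange for shZDHHC15 and a line at each group mean (n = 2). DKK1 lies near 250 CPM in shCON cells and between 81.9 and 99.9 CPM in shZDHHC15 cells, and the TCF7 replicates of shZDHHC15 lie apart at 4.94 and 2.85 CPM.

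Every Wnt ligand carries a fatty acid on a conserved serine, attached by the acyltransferase PORCN and needed for secretion and receptor binding. All 19 human Wnt genes encode this site in the GENCODE release 29 transcripts. The coding bases of the 4 ligand members are shown because they are the feature these genes share, with the codon of the acylated serine in capitals, written 5′ to 3′ on the coding strand.
WNT5A: tgccatggggtgTCCggctcatgt
WNT7A: tgccacggcgtgTCAggctcgtgc
WNT7B: tgccacggcgtgTCTggctcctgc
WNT10A: tgccacggcacgTCAggcagctgc
On GRCh38 these lie in coding exons at chr3:55470494-55470517 (minus strand), chr3:13819367-13819390 (minus strand), chr22:45923279-45923302 (minus strand) and chr2:218892807-218892830 (plus strand), respectively. WNT7A and WNT7B share 22 of these 24 bases, whereas WNT5A and WNT10A share 15. None of the 4 ligand genes shared 150 bases or more with another gene at 97% identity or above.

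WNT7B (ENSG00000188064, GRCh38 chromosome 22, 45920362 to 45977129, minus strand) encodes a ligand of mammary and lung epithelium and was, per length, the most abundant Wnt transcript in all 4 samples. It received 1833 and 1762 counts in shCON cells and 2155 and 2267 counts in shZDHHC15 cells. The shZDHHC15 values were the higher pair in each case, but the step was small. Its level was 103 ± 2.77 CPM in shCON cells and 116 ± 0.175 CPM in shZDHHC15 cells (SD, n = 2). The log2 fold change was 0.17 with a standard error (SE) of 0.0938 and did not pass the quasi-likelihood test of edgeR (adjusted p = 0.153). Scaled by library size alone, the value was 0.25 and was called (adjusted p = 0.0418), against a range of 0.0418 to 0.424 over the 12 alternatives.

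WNT5A (ENSG00000114251, chromosome 3, 55465715 to 55490539, minus strand), the best known ligand of β-catenin-independent signalling, was counted 68 and 42 times in shCON cells and 109 and 123 times in shZDHHC15 cells. The shCON pair was the more spread, and the groups did not overlap. WNT5A rose from 3.11 ± 0.877 to 6.06 ± 0.291 CPM (SD, n = 2), which is 0.95 in log2 units (SE 0.241, adjusted p = 0.00539). With 1 sample left out in turn the value lay between 0.69 and 1.25. WNT5A was called under the 8 alternatives that kept all 4 samples. The largest adjusted p over the alternatives, 0.0492, came from leaving out shCON replicate 2.

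WNT10A (ENSG00000135925, chromosome 2, 218880363 to 218899581, plus strand) encodes a canonical ligand with known roles in skin, teeth and mammary tissue. Its counts were 32 and 33 in shCON cells and 45 and 55 in shZDHHC15 cells, both of the latter above both controls. The log2 fold change was 0.50 with an SE of 0.296, and the difference did not pass the test (adjusted p = 0.198). WNT7A (ENSG00000154764, chromosome 3, 13816258 to 13880121, minus strand), the nearest relative of WNT7B among the members, received 6 counts in shZDHHC15 replicate 1 and 0 counts in the other 3 samples. The floor of 3 counts that a 0 allows corresponds to a level of 0.157 to 0.171 CPM, a limit that covers counting error only, and WNT7A gave no testable difference.

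Compared per length, the 4 ligand members lay far apart. In RPKM (CPM divided by the gene length in kilobases), WNT7B stood at 20.3 ± 0.548 in shCON and 22.9 ± 0.0346 in shZDHHC15 cells. WNT10A followed at 0.544 ± 0.0417 and 0.765 ± 0.0798 RPKM, and WNT5A at 0.42 ± 0.119 and 0.819 ± 0.0394 RPKM. WNT5A (0.504 and 0.337 RPKM) lay below WNT10A (0.514 and 0.573 RPKM) in the shCON samples, and the values of these 2 genes overlapped in the shZDHHC15 samples, so their order did not hold beyond the spread. WNT7B alone made up 49.6% and 49.3% of the summed RPKM of all 19 Wnt ligand genes in the shCON samples and 49% and 48.9% in the shZDHHC15 samples. The sum itself was 40.2 and 42 RPKM in shCON cells and 46.8 and 46.7 RPKM in shZDHHC15 cells.

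The remaining ligands changed places below WNT7B. Of the 19 ligand genes, 13 were tested, with 3 higher, 1 lower and 9 not called. The called share of the tested ligands was 30.8%, against 42% of all tested genes. WNT4, a progesterone-induced ligand of the mammary gland, rose from 9.67 ± 0.516 to 21.2 ± 3.42 CPM (log2 fold change 1.13, SE 0.159, adjusted p = 5.48e-05), and WNT5A was the next largest rise. WNT6, the other called rise, named after its values were seen, had 169 and 147 counts in shCON and 347 and 289 counts in shZDHHC15 cells. WNT9A went the other way, from 650 and 607 counts to 326 and 419 counts, and fell by 0.88 on the log2 scale (SE 0.13, adjusted p = 8.22e-05). WNT9A held 22.4% and 21.6% of the summed ligand RPKM in the shCON samples and 9.42% and 11.5% in the shZDHHC15 samples, whereas the share of WNT6 was 13.6% and 12.2% against 23.4% and 18.5%. WNT1, WNT2, WNT8A and WNT9B had 0 counts in each sample.

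**Figure D2:**
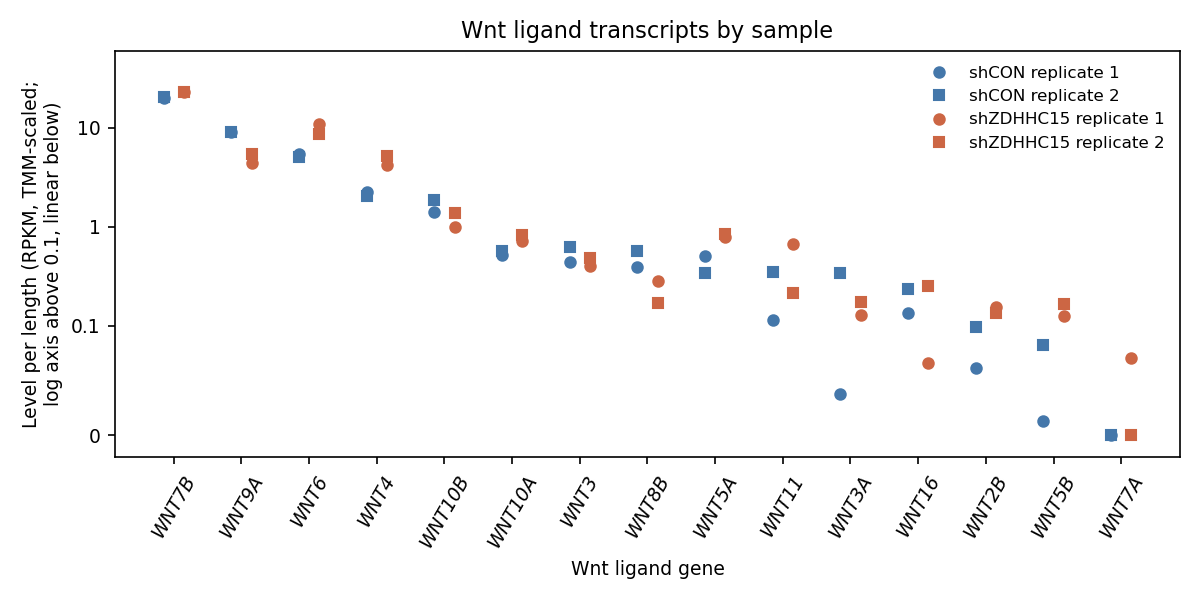
Level per length (RPKM, TMM-scaled, log axis above 0.1 and linear below) of the 15 Wnt ligand genes with at least 1 count, ordered by their shCON mean, with symbols and colours for sample and group as labelled. WNT7B lies highest in all 4 samples, between 19.9 and 22.9 RPKM, and WNT9A and WNT6 exchange ranks between the groups.

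DKK1 (ENSG00000107984, chromosome 10, 52314296 to 52318042, plus strand) encodes a secreted protein that blocks Wnt signalling by binding LRP5 and LRP6, and its gene is itself a known target of β-catenin. Its counts were 4600 and 4187 in shCON cells and 1525 and 1960 in shZDHHC15 cells. Both shZDHHC15 values lay far under both controls, and the shZDHHC15 pair was the more spread. DKK1 fell 2.75-fold, from 250 ± 2.9 to 90.9 ± 12.7 CPM (SD, n = 2), or -1.46 on the log2 scale (SE 0.106, adjusted p = 6.62e-08). The fall was called under the 8 alternatives that kept all 4 samples. Over all 12 alternatives its values lay between -1.62 and -1.33 on the log2 scale. Per length, DKK1 exceeded 97.6% and 97.4% of the tested genes in the shCON samples, and 92.1% and 93.5% of them in the shZDHHC15 samples. An antisense gene, PRKG1-AS1, covers 9.6% of the DKK1 exon bases and received 6 to 9 counts per sample.

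The promoter of DKK1 is shown because, among the members with a promoter window, it alone held both motifs searched. These were the TCF/LEF motif (CTTTGAA or CTTTGAT) and the core TEAD motif (GGAATG), the site of the factors through which YAP acts, each looked for on both strands of the RefSeq promoter windows (GRCh38.p14, 250 bases before to 50 bases after a gene's start). The 250 bases before the DKK1 start, at chr10:52314031-52314280 on the plus strand, follow with the matches in capitals.
DKK1: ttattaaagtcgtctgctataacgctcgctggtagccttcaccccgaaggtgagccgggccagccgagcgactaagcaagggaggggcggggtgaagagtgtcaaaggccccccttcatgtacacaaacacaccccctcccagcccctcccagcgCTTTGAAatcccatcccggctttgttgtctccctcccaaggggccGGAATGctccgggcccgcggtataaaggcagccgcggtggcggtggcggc
Counted from the start, CTTTGAA begins at position -95 and GGAATG at position -50. Of all 35116 windows, 6.86% held a TCF/LEF match, 14% a TEAD match and 1.12% both. Windows were found for 6 of the 10 members (DKK1, RNF43, TCF7, WNT5A, WNT7A and WNT10A), 9 windows in all. Only RNF43 held another match, a pair of GGAATG sites on the opposite strand at positions -189 and -180 from an inner start, in chr17:58402888-58402917 on the minus strand. They are shown for their close spacing, in capitals.
RNF43: ggagccaCATTCCctgCATTCCtctactgt
These matches describe the letters of the windows and do not show that a factor bound there.

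DKK3 (ENSG00000050165, chromosome 11, 11963106 to 12009769, minus strand), a divergent relative of DKK1 that is often silenced in tumours, had 2 and 0 counts in shCON cells and 0 and 1 counts in shZDHHC15 cells. These values were at or under the floor of 3 counts in every sample, so no fold change is given. Of the 18 inhibitor genes listed, secreted and membrane-bound, only DKK1, KREMEN1, KREMEN2 and TRABD2A were abundant enough to be tested, and 9 did not exceed 3 counts in any sample. DKK1 was lower and the other 3 were not called, although KREMEN2 was called lower without shCON replicate 1. KREMEN2, a receptor for DKK1, is overlapped by PKMYT1 on the opposite strand over 13.8% of its exon bases. KREMEN2 had the next largest difference, with a log2 fold change of -0.34 (SE 0.144, adjusted p = 0.0748). DKK1 was therefore the main inhibitor transcript of these cells in both groups, at 113 ± 1.31 RPKM in shCON and 41.2 ± 5.75 RPKM in shZDHHC15 cells, where KREMEN2 stood at 6.19 and 4.9 RPKM. The ratio of WNT7B to DKK1 per length was 0.174 and 0.184 in the shCON samples and 0.617 and 0.505 in the shZDHHC15 samples.

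AXIN2 (ENSG00000168646, chromosome 17, 65528563 to 65561647, minus strand), a scaffold of the destruction complex and the most general transcriptional target of β-catenin, was counted 16 and 11 times in shCON cells and 53 and 43 times in shZDHHC15 cells. Its groups stood well apart, although all 4 counts were low. AXIN2 rose from 0.765 ± 0.159 to 2.52 ± 0.464 CPM (SD, n = 2), a 3.25-fold increase (log2 fold change 1.70, SE 0.373, adjusted p = 0.00206). The rise was called under the 8 alternatives that kept all 4 samples, with adjusted p-values up to 0.0173. Over all 12 alternatives it lay between 1.5 and 1.90 on the log2 scale. AXIN1, the constitutive relative of AXIN2, fell by 0.40 (SE 0.108, adjusted p = 0.00773), a call lost without shZDHHC15 replicate 1 (-0.29, adjusted p = 0.153). Per length AXIN2 remained the minor form, at 1.5% and 1.06% of AXIN1 in the shCON samples and 6.85% and 4.45% in the shZDHHC15 samples. AC004805.1, on the same strand, shares 25.2% of the AXIN2 exon bases and had 0 counts in each sample. The sources used here do not give how reads on these shared bases were counted. Their part in the AXIN2 values was not tested.

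TCF7 (ENSG00000081059, chromosome 5, 134114711 to 134151865, plus strand) encodes TCF1, a DNA-binding partner of β-catenin. It had 33 and 36 counts in shCON cells and 92 and 56 counts in shZDHHC15 cells, so that the size of the rise was set largely by shZDHHC15 replicate 1. The level rose from 1.97 ± 0.229 to 3.9 ± 1.48 CPM (SD, n = 2), which is 0.98 in log2 units (SE 0.317, adjusted p = 0.0226). Without shZDHHC15 replicate 1 the log2 fold change was 0.53 and no longer called (adjusted p = 0.301), and without shCON replicate 1 it was 0.83 (adjusted p = 0.0613). The call was also lost with the DESeq2 Wald test (adjusted p = 0.0722) and when low counts were not filtered out (adjusted p = 0.115), within a range of 0.000658 to 0.301 over the alternatives. SKP1 overlaps 2.1% of the TCF7 exon bases on the opposite strand and received 2034 to 2188 counts per sample, and the sources used here do not give whether reads were counted by strand. Per length, TCF7 reached 5.74% and 6.14% of its relative TCF7L1 in the shCON samples and 15% and 10.5% in the shZDHHC15 samples. Relative to TCF7L2 the values were 7.59% and 10.5% against 16.6% and 10.6%, so that replicate 2 was nearly equal in both groups.

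RNF43 (ENSG00000108375, chromosome 17, 58352500 to 58417595, minus strand), a membrane ubiquitin ligase that removes Frizzled receptors from the cell surface, was counted 250 and 216 times in shCON cells and 174 and 193 times in shZDHHC15 cells. The groups were separate but close. Its level fell from 13.3 ± 0.642 to 9.59 ± 0.345 CPM (SD, n = 2), which is -0.47 in log2 units (SE 0.156, adjusted p = 0.0257). This call was lost under 6 of the 12 alternatives, among them the DESeq2 Wald test (adjusted p = 0.0751) and library size as the only scaling (adjusted p = 0.0606), with adjusted p-values from 0.017 to 0.129 in all and a fall in each of them. Of the RNF43 exon bases, 59.5% are shared on the same strand with AC004687.2 and SUPT4H1. These genes received 1, 2, 0 and 1 counts and 1, 1, 0 and 0 counts in shCON 1, shCON 2, shZDHHC15 1 and shZDHHC15 2, although SUPT4H1 encodes a general transcription elongation factor. A further 20.3% figure applies to the opposite strand, where TSPOAP1-AS1 overlaps the RNF43 exon bases. It received 0, 2, 0 and 2 counts in the same sample order. How reads on shared bases were counted is not given in the sources used here, and their part in the RNF43 value was not tested.

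LGR5 (ENSG00000139292, chromosome 12, 71439770 to 71586310, plus strand), a receptor for R-spondins and a stem cell marker that responds to β-catenin in the intestine, had 1 and 2 counts in shCON cells and 0 counts in each shZDHHC15 sample. All 4 values lie at or under the floor, so a difference was not detectable at this depth. Of the 9 genes of the R-spondin axis, LGR4, RNF43 and ZNRF3 were tested with all 4 samples. The fits with 1 sample left out applied the filter anew, so other genes of this list could enter them. LGR4, the receptor of this family expressed here, rose by 0.31 on the log2 scale (SE 0.112, adjusted p = 0.0381). ZNRF3, the partner ligase of RNF43, fell by 0.30 (SE 0.114, adjusted p = 0.0485). Both were borderline, and each was lost under 6 of the 12 alternatives. Without shZDHHC15 replicate 1, none of LGR4, RNF43 and ZNRF3 was called. RSPO1 and RSPO4 had 0 counts in each sample.

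**Figure D3:**
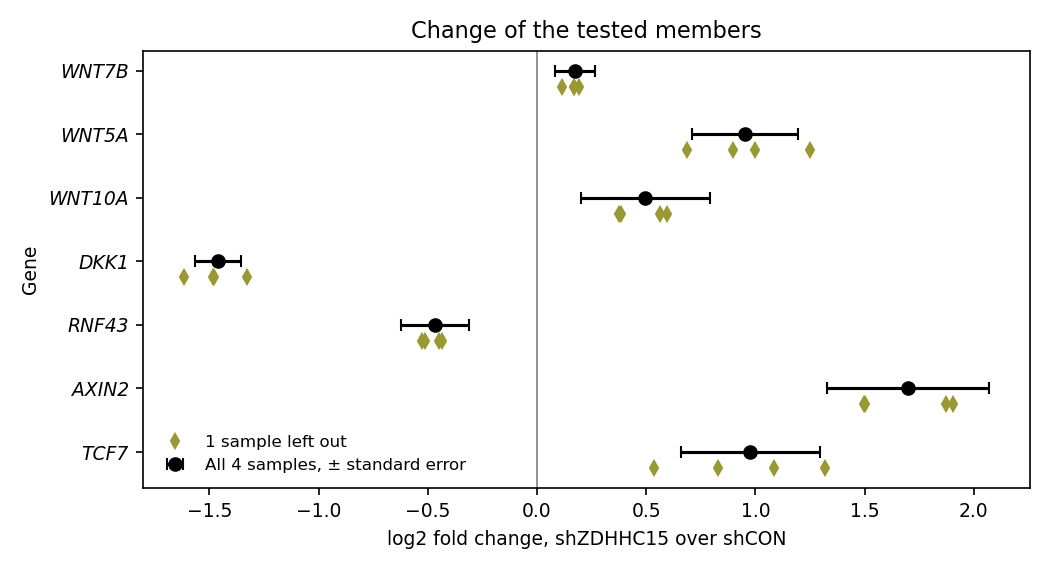
Log2 fold change of shZDHHC15 over shCON for the 7 tested members, with black points and bars for the value and standard error over all 4 samples and diamonds for the fits that each left out 1 sample. DKK1 and RNF43 lie under 0 and the other 5 above it in each fit, and TCF7 has the widest diamonds, from 0.53 to 1.32.

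The 10 members were then set beside 113 Wnt pathway genes listed by role, of which they are part. Of these, 84 were tested, with 24 called higher in shZDHHC15 cells and 17 called lower, or 48.8% called against 42% of all tested genes. The list had a median of 0.14 in log2 fold change, beside 0.02 for all tested genes. Without the members, 21 of 77 genes were higher and 15 lower. The number of lower genes depended on the processing and was 10 with library size only, 10 with no filter on low counts and 9 without shZDHHC15 replicate 1.

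Genes that load and release the ligands moved apart. PORCN, the acyltransferase that lipidates Wnt proteins, fell from 26.6 ± 4.44 to 16.5 ± 1.79 CPM (log2 fold change -0.69, SE 0.148, adjusted p = 0.00178). WLS, the carrier that brings lipidated Wnt proteins to the cell surface, fell by 0.72 (SE 0.111, adjusted p = 0.000122). TMED5, a cargo receptor of the early secretory route, rose by 0.39 (SE 0.104, adjusted p = 0.00794), a call lost with no filter on low counts and without shCON replicate 2. Together with TMED2, which did not pass the test, these make 1 higher and 2 lower among 4 tested genes. The called share was 75%, against 42% of all tested genes.

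Among the receptors, 15 of 16 genes were tested, with 6 higher, 3 lower and 6 not called. The called share was 60%, against 42% of all tested genes. Without shZDHHC15 replicate 1, 3 genes were higher and none of the 3 lower calls held, and 1 gene was lower without shCON replicate 2 or without shZDHHC15 replicate 2. The coreceptor genes LRP6 and LRP5 were both higher, LRP6 with 216 and 172 counts in shCON and 427 and 382 counts in shZDHHC15 cells. The log2 fold change was 0.94 for LRP6 (SE 0.153, adjusted p = 0.000193) and 0.41 for LRP5 (SE 0.0986, adjusted p = 0.00359), although LRP5 missed the threshold without shZDHHC15 replicate 1 (adjusted p = 0.0502). FZD5 rose by 0.95 (SE 0.125, adjusted p = 3.11e-05). FZD9 and FZD2 were lower, by log2 fold changes of -0.58 and -0.34 (adjusted p = 0.0296 and 0.027), and each call was lost under 5 of the 12 alternatives.

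In the cytoplasm, all 19 genes listed were tested, and 47.4% were called, against 42% of all tested genes. Of the 19, 4 were higher, 5 were lower and 10 were not called. These counts were 2 higher and 3 lower without shCON replicate 2, and 2 lower without shZDHHC15 replicate 1. DVL1, which encodes a Dishevelled protein that relays the Frizzled signal, fell from 249 ± 20.4 to 88.9 ± 11.5 CPM, a log2 fold change of -1.49 (SE 0.109, adjusted p = 7.46e-08). Its relatives DVL2 and DVL3, named after their values were seen, overlapped between the groups and were not called. The scaffold gene APC rose by 0.60 (SE 0.173, adjusted p = 0.012), but without shCON replicate 2 the value was 0.29 and was not called (adjusted p = 0.111), nor was it when low counts were kept (adjusted p = 0.12). AMER1, a membrane anchor of the destruction complex, rose by 0.62 (SE 0.146, adjusted p = 0.00325). CTNNB1, the β-catenin gene, stood at 457 ± 18 CPM in shCON and 507 ± 18.8 CPM in shZDHHC15 cells (log2 fold change 0.15, SE 0.0869, adjusted p = 0.179), and was called with library size as the only scaling (0.23, adjusted p = 0.0417).

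Of the 13 nuclear factors, all tested, 5 were higher, 1 was lower and 7 were not called. The called share was 46.2%, against 42% of all tested genes. BCL9, a coactivator of β-catenin, rose by 0.75 on the log2 scale (SE 0.112, adjusted p = 0.000102). TLE1, a Groucho corepressor of the TCF factors, fell by 0.85 (SE 0.0919, adjusted p = 4.37e-06), whereas its relative TLE3, named here after its values were seen, rose by 0.71 (SE 0.0939, adjusted p = 3.03e-05). TCF7L2, the TCF factor of most epithelia, did not pass the test (log2 fold change 0.36, SE 0.144, adjusted p = 0.0587), and was called under 3 of the 12 alternatives. LEF1, also named after its values were seen, had 25 and 11 counts in shCON cells and 38 and 46 counts in shZDHHC15 cells, with an adjusted p of 0.0306 that was lost under 4 alternatives.

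The feedback and target genes of β-catenin did not share a direction. Of 15 listed, 12 were tested, with 3 higher (AXIN2, TCF7 and LEF1), 6 lower (DKK1, RNF43, ZNRF3, NKD2, CCND1 and TNFRSF19) and 3 not called. The called share was 75%, against 42% of all tested genes. Without shZDHHC15 replicate 1 the lower genes numbered 3, since RNF43, ZNRF3 and NKD2 were then not called, and TCF7 was no longer among the higher genes. NKD2, a feedback inhibitor that binds Dishevelled, lost its call under 7 of the 12 alternatives. CCND1, the cyclin D1 gene, which many other pathways also control and which LTO1 overlaps on the opposite strand over 10.3% of its exon bases, fell from 3173 ± 34.4 to 1288 ± 146 CPM (log2 fold change -1.30, SE 0.0939, adjusted p = 6.59e-08). TNFRSF19, named after its values were seen, had 41 and 52 counts in shCON cells and 7 and 3 counts in shZDHHC15 cells (log2 fold change -3.31, SE 0.48, adjusted p = 7.37e-05). The higher genes of this group were all of low abundance, with AXIN2, TCF7 and LEF1 at 0.146, 0.196 and 0.189 RPKM in shCON cells. The lower genes ranged there from TNFRSF19 at 0.521 and NKD2 at 0.733 RPKM up to CCND1 at 657 RPKM. Finally, 4 of 9 tested genes of planar cell polarity and noncanonical signalling were higher and 0 lower. The called share was 44.4%, close to the 42% of all tested genes. Of all tested genes, 21.7% were higher and 20.3% were lower. The 5 other genes of this list were not called in the main edgeR fit. Of these, DAAM1 had a log2 fold change of 0.33 (adjusted p = 0.0808). DAAM1 was called higher with library size only (0.40, adjusted p = 0.0498) and with a replicate block (0.34, adjusted p = 0.0252). CELSR2, an atypical cadherin of this system, rose by 0.88 (SE 0.113, adjusted p = 2.32e-05), and PRICKLE2, a cytoplasmic component of it of whose exon bases 25.2% lie opposite other genes, rose by 1.24 (SE 0.29, adjusted p = 0.00319).

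**Figure D4:**
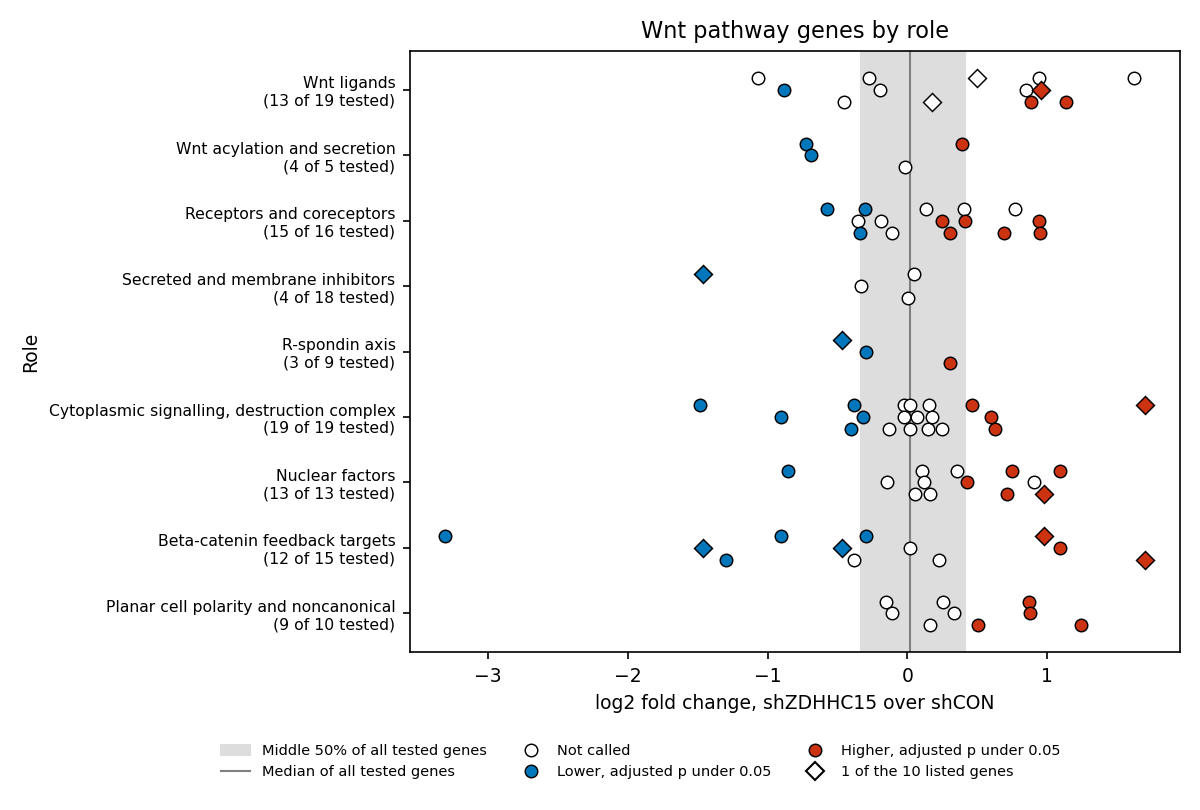
Log2 fold change of shZDHHC15 over shCON for the tested Wnt pathway genes in 9 role lists, red for genes called higher, blue for genes called lower, white for genes not called and diamonds for the 7 tested members, with the median and middle 50% of all tested genes in grey (a gene may stand in 2 lists). The β-catenin target list spans from TNFRSF19 at -3.31 to AXIN2 at 1.70, with calls on both sides.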

How the data were processed

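RNA of 4 HCC1954 samples, 2 shCON and 2 shZDHHC15 by the labels, was analysed. The authors deposited raw counts of reads per gene, not normalized. The submitters' processing notes name HISAT2, SAMtools, StringTie and hg38, while the counting tool, its strand setting and the annotation are not given in the sources used here. All 58735 identifiers matched GENCODE release 29 in symbol, start and end. Gene lengths, another deposited column of the table, were used for RPKM. All 4 count columns were used and 0 were left out.

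Genes passing filterByExpr (15817) were fitted with edgeR 4.0.16 (R 4.3.3, TMM, glmQLFit with legacy = FALSE, glmQLFTest, limma 3.58.1), with Benjamini-Hochberg adjustment over all of them. DESeq2 1.42.0 was an alternative. The smallest two-sided p from an exact permutation of 2 against 2 samples is 0.333, and the p-values of edgeR rest on a spread shared among genes. On simulated counts with 200 of the 15817 genes changed by 1.5 (log2), 85% were recovered, and 7.61% of the calls were false, above the nominal 0.05. Smaller changes were not simulated, and far more genes (42%) were called in the data. Recovery and error under those conditions were not tested. Samples of a group differed by more than counting noise (chi-square per degree of freedom 8.32 for shCON and 6.79 for shZDHHC15). The members, role lists and tests were chosen with earlier results of these data known. The named genes were the members, the 2 largest rises and 2 largest falls of each of the 9 role lists (adjusted p under 0.05, no overlap, higher group averaging 50 counts or more), and ZDHHC15, CTNNB1, PORCN, WLS, LRP5, LRP6 and TCF7L2. Exon overlaps were taken from GENCODE for all listed genes, and the counts of overlapping genes were examined for the members only. The motifs were chosen after the counts were seen.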

Additional observations from a re-analysis of the deposited data

How the results depend on the processing

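Of the 7 tested members, DKK1, AXIN2, WNT5A and WNT10A kept their side of the threshold under the 8 alternatives with all 4 samples. No member changed sign under any of the 12 alternatives. WNT7B was called only with library size as the only scaling (log2 fold change 0.25). TCF7 was not called with the DESeq2 Wald test (0.97) or with no filter on low counts (0.96). RNF43 was not called with library size only (-0.39), the DESeq2 Wald test (-0.48) or no filter (-0.49). With no filter, where more genes share the adjustment, 2282 genes were higher, and 10 Wnt pathway genes were lower, as with library size only (10). Among the role lists, 3 β-catenin targets were lower with library size only, the DESeq2 Wald test or no filter, against 6, and 1 was higher with the latter pair, against 3. Nuclear factors called higher numbered 3 with the Wald test or no filter, against 5. The 3 lower receptors lost their calls with library size only or no filter, and the 3 R-spondin axis genes with the Wald test or no filter. Cytoplasmic genes called lower numbered 3 with library size only or no filter, against 5, and those called higher 2 with no filter, against 4. The cause was not tested. The fits with 1 sample left out were not stricter, since adjusted p-values of some members were lower in them than with all 4 samples. A call kept in these fits therefore adds no support. With each sample left out, where the lone sample is assumed to vary like the other group, the log2 fold change lay between -1.62 and -1.33 for DKK1, 1.5 and 1.90 for AXIN2, 0.69 and 1.25 for WNT5A, 0.53 and 1.32 for TCF7, -0.53 and -0.43 for RNF43, 0.12 and 0.19 for WNT7B and 0.38 and 0.59 for WNT10A. Called genes then numbered 2525 to 3405 higher and 2203 to 3478 lower, and Wnt pathway genes 19 to 26 higher and 9 to 16 lower.

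The replicate numbers are shared between groups only as numbers (correlation of replicate differences 0.0344 over 15817 genes). With a replicate block, 3723 genes were higher and 3502 lower, and 26 Wnt pathway genes higher and 17 lower, and no call of a member changed. Counts near 3 limit what can be said of WNT7A, DKK3 and LGR5.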

Other observations

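Several Wnt genes outside the 84 tested had low counts in these samples. RSPO3, which encodes an R-spondin, received 1 and 5 counts in shCON cells and 9 and 16 counts in shZDHHC15 cells. APCDD1, a membrane inhibitor of Wnt signalling, had 0 counts in each shCON sample and 3 and 4 counts in the shZDHHC15 samples, and SFRP4, a secreted Frizzled-related inhibitor, had 0 counts against 3 and 3, values at or next to the floor of 3 counts at which a difference was not detectable. NOTUM, which removes the lipid from Wnt proteins, had 6 and 11 counts in shCON cells and 2 and 5 counts in shZDHHC15 cells. These genes were named after their values were seen. They did not pass the filter on low counts with all 4 samples, so no test result is given for them.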
